A study of Homo sapiens with 24 samples.

Results

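The transcript clusters described here are those whose annotation holds more than 1 gene symbol. A transcript cluster is the array's unit for a gene: a set of probes whose signals are summarised into 1 value per array. The members were found by their annotation alone: of 22011 clusters with a value on all 12 arrays in the summary over the array's core probe set list, 2408 carry several symbols, among them 2 that list a single symbol more than once. A further 14432 carry 1 symbol, and 5171 carry none in the annotation used. Of the members, 1956 carry exactly 2 symbols, and the largest, a protocadherin alpha cluster, carries 15. Members are named by their symbols, joined by slashes in the order of the annotation, and some with many symbols by the first of them, so that NME1/NME1-NME2 is 1 cluster with 2 symbols.

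RNA of the human B cell precursor acute lymphoblastic leukemia lines MHH-CALL4 and MUTZ-5 was hybridised to Affymetrix exon arrays. Cells of each line were exposed for 8 hours to 500 nM JQ1, an inhibitor that competes with acetylated histones for the bromodomains of BET proteins, or to DMSO, its solvent, which makes 4 groups of 3 arrays. Both lines are established cultures that each descend from 1 patient's leukemia, so a difference between them is a difference between those cultures. The labels give no genotype for either line and leave unstated if replicate arrays came from separate cultures. The p-values thus rest on a spread between arrays that may be only technical.

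Several symbols come to share a cluster for different reasons. Near-copies made by duplication, such as histone genes of the same type, the HSPA1 heat shock genes or NOTCH2 and its partial copy NOTCH2NLA, can bind the same probes. A read-through symbol names a transcript that runs from one gene into the next. Small nucleolar RNAs (guides for chemical modification of ribosomal RNA) and many microRNAs (short repressors of messenger RNA) lie inside longer host transcripts, and the array reads the host or primary transcript, not the short mature RNA. Other members hold genes that overlap on opposite strands or that stand next to each other. In each of these cases the value belongs to the cluster, and the share of each gene in it is not measured.

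Mature microRNAs of the named hosts are shown first, so that hosts of microRNAs with the same seed can be set side by side below. The sequences are mature RNAs from RefSeq (GRCh38.p14), written 5′ to 3′, with the seed, bases 2 to 8, in capitals. The seed is the part that pairs with target messenger RNAs. The first group shares 1 seed and comes from MIR17HG on chromosome 13 (hsa-miR-17-5p at chr13:91350618-91350640, plus strand) and from an intron cluster of MCM7 on chromosome 7 (hsa-miR-106b-5p at chr7:100094043-100094063, minus strand).
hsa-miR-17-5p: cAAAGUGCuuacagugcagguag
hsa-miR-20a-5p: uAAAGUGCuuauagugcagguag
hsa-miR-106b-5p: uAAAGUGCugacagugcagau
hsa-miR-93-5p: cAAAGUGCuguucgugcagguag
A second seed group also joins these 2 hosts.
hsa-miR-92a-3p: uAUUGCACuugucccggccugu
hsa-miR-25-3p: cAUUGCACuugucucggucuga
The other mature forms of the MIR17HG cluster have seeds that the MCM7 forms lack.
hsa-miR-18a-5p: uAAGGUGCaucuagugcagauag
hsa-miR-19a-3p: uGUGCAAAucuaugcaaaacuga
hsa-miR-19b-3p: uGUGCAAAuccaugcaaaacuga
The miR-26 forms lie in 3 genes for small phosphatases of RNA polymerase II, and hsa-miR-26a-5p (here from MIR26A1, chr3:37969413-37969434, plus strand) and hsa-miR-26b-5p (chr2:218402657-218402677, plus strand) share their seed.
hsa-miR-26a-5p: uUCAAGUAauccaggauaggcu
hsa-miR-26b-5p: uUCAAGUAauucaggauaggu
The last ones belong to HNRNPK and AEN (miR-7, here from MIR7-1, chr9:83969811-83969834, minus strand) and ARPP21 (MIR128-2, chr3:35744527-35744547, plus strand).
hsa-miR-7-5p: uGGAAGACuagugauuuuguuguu
hsa-miR-128-3p: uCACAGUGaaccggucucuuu

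Promoter windows are shown for 3 loci at which 1 symbol set covers more than 1 start of transcription. Each window runs from 250 bases before to 50 bases after the RefSeq gene start (GRCh38.p14), 5′ to 3′ on the gene's strand. NME1 (chr17:51153309-51153608, plus strand) and NME2 (chr17:51165286-51165585, plus strand) are tandem genes that a read-through transcript joins. Capitals mark the letters CACGTG, an E-box that MYC and other basic helix-loop-helix factors can bind. The motif reads the same on both strands.
NME1: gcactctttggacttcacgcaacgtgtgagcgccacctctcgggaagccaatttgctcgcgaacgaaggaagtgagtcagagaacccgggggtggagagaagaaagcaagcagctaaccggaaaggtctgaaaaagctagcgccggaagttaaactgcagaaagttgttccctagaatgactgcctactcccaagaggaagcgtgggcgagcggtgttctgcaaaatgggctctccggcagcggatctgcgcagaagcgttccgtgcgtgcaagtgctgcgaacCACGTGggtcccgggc
NME2: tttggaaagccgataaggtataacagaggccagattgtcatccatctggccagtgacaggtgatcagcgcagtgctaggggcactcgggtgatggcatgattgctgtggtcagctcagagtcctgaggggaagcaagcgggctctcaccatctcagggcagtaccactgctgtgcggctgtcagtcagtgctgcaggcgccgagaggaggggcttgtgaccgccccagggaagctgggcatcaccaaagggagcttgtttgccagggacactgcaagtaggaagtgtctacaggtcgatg
The letters CACGTG stand once in the NME1 window and not in the NME2 window. They occur in 2030 of 27305 windows of all genes (7.43%) and in 294 of 3087 windows of member symbols (9.52%). Such a match describes the letters in these windows and is not a measured binding site.

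NOTCH2 (chr1:120069613-120069912, minus strand) and NOTCH2NLA (chr1:146228972-146229271, minus strand) illustrate a near-copy. Capitals mark the bases outside the matching blocks of the pair of windows.
NOTCH2: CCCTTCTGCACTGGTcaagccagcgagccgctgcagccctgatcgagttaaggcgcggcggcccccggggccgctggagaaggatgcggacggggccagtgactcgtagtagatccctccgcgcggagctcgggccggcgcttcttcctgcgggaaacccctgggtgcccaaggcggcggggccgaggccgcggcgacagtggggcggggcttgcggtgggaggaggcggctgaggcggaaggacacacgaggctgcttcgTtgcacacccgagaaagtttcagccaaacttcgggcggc
NOTCH2NLA: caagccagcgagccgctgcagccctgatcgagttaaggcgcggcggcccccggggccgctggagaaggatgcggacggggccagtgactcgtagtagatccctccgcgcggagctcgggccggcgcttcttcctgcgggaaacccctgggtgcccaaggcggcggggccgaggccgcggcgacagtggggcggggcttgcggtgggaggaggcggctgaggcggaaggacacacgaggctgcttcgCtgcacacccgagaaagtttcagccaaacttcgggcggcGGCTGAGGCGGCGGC
The windows are offset by 15 bases, and over the 285 bases they then share 1 base differs. The value of NOTCH2/NOTCH2NLA is reported below for the cluster, with no split between the genes.

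BRIX1 (chr5:34915461-34915760, plus strand) and RAD1 (chr5:34915455-34915754, minus strand) lie head to head and run apart. Capitals mark the 6 bases of the BRIX1 window that lie outside the RAD1 window. The other 294 bases serve as the window of both genes.
BRIX1: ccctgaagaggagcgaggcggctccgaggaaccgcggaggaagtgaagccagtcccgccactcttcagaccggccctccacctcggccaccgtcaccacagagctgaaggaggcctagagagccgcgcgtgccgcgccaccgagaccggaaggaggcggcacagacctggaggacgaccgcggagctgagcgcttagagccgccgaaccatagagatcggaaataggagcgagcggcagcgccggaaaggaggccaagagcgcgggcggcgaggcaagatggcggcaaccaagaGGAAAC
Promoter windows of 2 symbols overlapped on opposite strands in 69 members, by 17 to 294 bases with a median of 185.

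Expression of the lines' defining genes was checked on clusters with 1 symbol. Of 12 precursor B cell markers 10 had such a cluster, and 8 of these were at or above the median of all clusters in every group. Below it were RAG1 in both lines and CD34 in MHH-CALL4, where CD34 had a DMSO mean of 6.93 against 10.62 in MUTZ-5. Among the markers of other cells with such a cluster, 1 of 6 for T and NK cells, 1 of 5 for myeloid cells, 1 of 4 for erythroid cells and megakaryocytes and 1 of 5 for stroma reached that level in every group. In that order these were NKG7, ELANE, KLF1 and PDGFRB, with group means up to 10.5 for NKG7 and 9.9 for PDGFRB. The myeloid gene MPO had group means of 10.51 under DMSO and 8.04 under JQ1 in MHH-CALL4, and of 8.19 and 7.71 in MUTZ-5, and its part in the results was not tested. All levels are log2 values of the authors' summary, with array medians between 8.45 and 8.61. The files give no detection call, so it is not known which members lie above background, and levels of different clusters are signals that were not compared as RNA amounts. Member levels ran from 3.28 to 14.25 (means over all arrays), with a median of 8.38 against 8.51 for all clusters.

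More members were called lower than higher under JQ1 in each line, a balance that turned in MUTZ-5 when each array was centred on its median. A member was called where limma's adjusted p (Benjamini-Hochberg over all 22011 clusters) was under 0.05. In MHH-CALL4, 574 of 2408 members (23.8%) were called, against 22.4% of all clusters. Of these, 375 (15.6%) were lower under JQ1, against 14.6% of all clusters, and 199 (8.26%) were higher, against 7.82%. In MUTZ-5, 446 (18.5%) were called, against 16.7% of all clusters: 265 (11%) lower, against 10.2%, and 181 (7.52%) higher, against 6.55%. These shares are near those of all clusters and are no result about the members as a set. The median effect over all members was 0.003 in MHH-CALL4 and 0.001 in MUTZ-5 (log2), and over all clusters -0.007 and 0.001. In such bulk samples, fewer cells with an RNA and less of it per cell cannot be told apart.

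Both lines called 328 members. Of these, 221 (9.18%) were lower in both, against 8.24% of all clusters, and 106 (4.40%) were higher in both, against 4.01%. The remaining 1, RSPH10B/RSPH10B2, a pair of near-identical genes for a cilium protein, fell by 0.57 on the log2 scale in MHH-CALL4 (limma, adjusted p = 0.022) and rose by 0.50 in MUTZ-5 (adjusted p = 0.046). The difference of its effects, 1.07, was not called (adjusted p = 0.051), and its levels lay between 4.32 and 5.61. Its MHH-CALL4 call was lost without any 1 of 4 arrays of that line (DMSO 1 or 2, JQ1 2 or 3), and its MUTZ-5 call without most single arrays. A further 246 members (10.2%) were called in MHH-CALL4 and not in MUTZ-5, against 10.0% of all clusters, and 118 (4.90%) in MUTZ-5 and not in MHH-CALL4, against 4.40%, which by itself does not show that the effects differ. A change of at least 2-fold was called for 46 members in MHH-CALL4 (1.91%), against 1.80% of all clusters, and for 33 in MUTZ-5 (1.37%), against 1.37%.

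**Figure D1:**
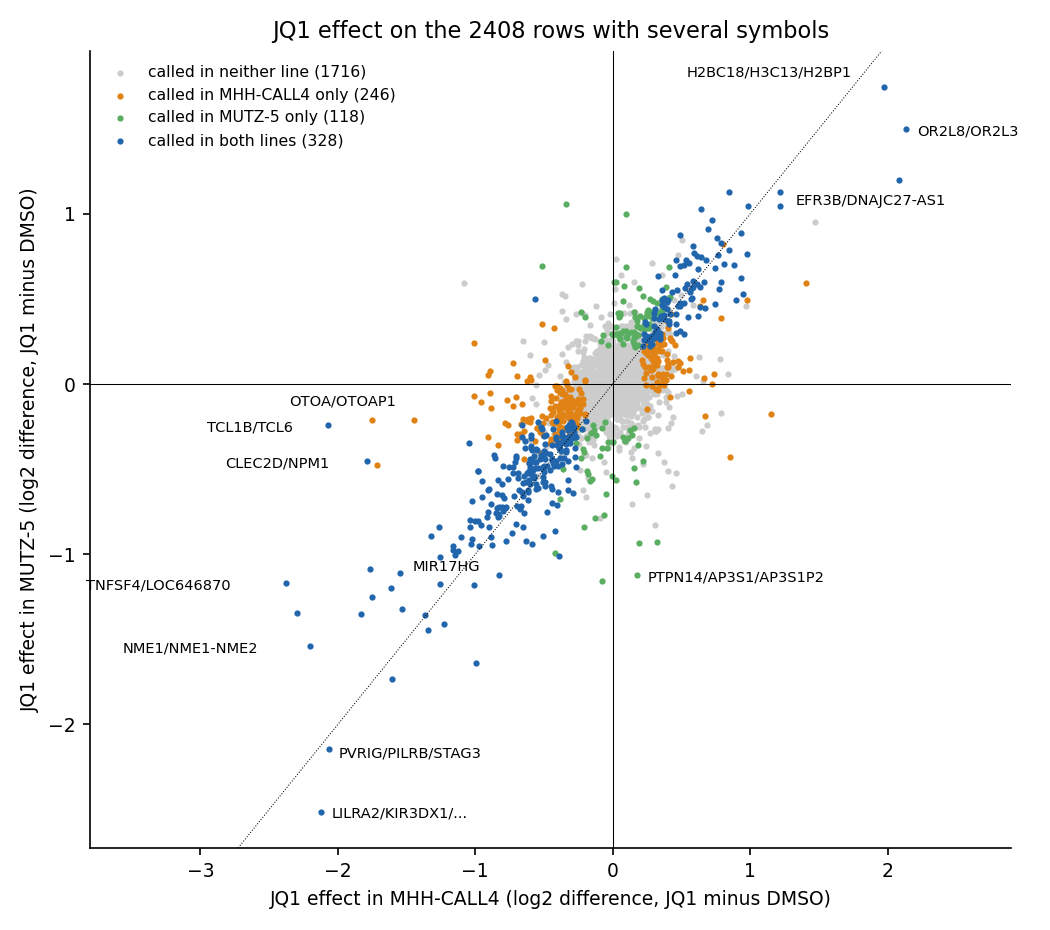
JQ1 effect (log2, JQ1 minus DMSO) in MHH-CALL4 on the x axis and MUTZ-5 on the y axis, 1 point per member, coloured by the lines in which it was called. The dotted line marks equal effects. LILRA2/KIR3DX1/LAIR2/TTYH1 and PVRIG/PILRB/STAG3 lie near it at the lower end, while TCL1B/TCL6 and OTOA/OTOAP1 lie far from it.

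The balance of directions depended on scaling and on single arrays. Of the called members 65.3% were lower in MHH-CALL4 and 59.4% in MUTZ-5. With each array centred on its median these shares were 51.3% (319 higher and 336 lower) and 44.8% (294 higher and 239 lower). Over all called clusters they were then 51.4% and 47.1%. For the called members cyclic loess scaling gave 55.8% in MHH-CALL4 and 52.6% in MUTZ-5. In MUTZ-5 the share was 48.2% without DMSO replicate 3 and 70.0% without DMSO replicate 2. The count in MUTZ-5 was 299 without JQ1 replicate 2. The direction of each named change below was the same under median centring and cyclic loess.

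The same arrays were also deposited as extended summaries, over a wider list of probe sets. Every called member had an extended value, and the sign was the same for 570 of 574 in MHH-CALL4 and 444 of 446 in MUTZ-5. Fitted with all 133672 extended rows, 169 and 94 members were called. Of the members described below, these lost their calls there in both lines: BRIX1/RAD1, CTDSP1/MIR26B, CTDSP2/MIR26A2, CTDSPL/MIR26A1, GBP1/GBP3, HEXD/OGFOD3, HSPA1B/HSPA1A, HSPA9/SNORD63, MCM7/MIR106B, MRPS12/SARS2, NCL/SNORD20, NOL11/SNORA38B, RSPH10B/RSPH10B2, TAF1D/SNORA18, TNFSF4/LOC646870, TRIM5/TRIM22, TUBA1A/TUBA1B, TUBA4A/STK16 and TYW1B/TYW1. The call in MHH-CALL4 alone was lost for ENTPD1/C10orf131, FCGR2A/FCGR2C, H2BC12/H2BC12L, HNRNPK/MIR7-1, MAGEC2/MAGEC3, OGFOD3/HEXD, PLPP1/RNF138P1 and STAT5B/STAT5A. The call in MUTZ-5 alone was lost for ANXA2P2/ANXA2, CLEC2D/NPM1, EIF4A1/SNORA48, H3C4/H2AC7, HLA-DMA/HLA-DMB, IFITM2/IFITM3, JMJD7-PLA2G4B/PLA2G4B, LCN6/LOC100128593, MRPL3/SNORA58, NOP58/SNORD11, PIGB/CCPG1, PPAN/PPAN-P2RY11, PTPN14/AP3S1, RAB30/SNORA70E, STAMBPL1/FAS, STAT5A/STAT5B, TCL1B/TCL6, TESK1/CD72 and TMEM144/GASK1B-AS1. The cause was not tested.

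Members with higher signals were called more often, as all clusters were. Among the 1159 members at or above the median level, 401 (34.6%) were called in MHH-CALL4, against 32.6% of all clusters at that level, and 343 (29.6%) in MUTZ-5, against 26.7%. For clusters with 1 symbol at that level the shares were 37.8% and 32.2%. Sorted by what their symbols are, 874 members held symbols with a shared name stem (near-copies and families, but also a gene with an overlapping or opposite-strand neighbour named after it), 197 joined a small RNA to a host or neighbour, 117 held an antisense, intronic or divergent RNA, 115 an uncharacterised partner, 31 a read-through symbol, and the other 1074 were pairs or groups of other genes. Members with a shared name stem had the lowest median level of these kinds (7.30) and the lowest called share, 143 (16.4%) in MHH-CALL4 and 116 (13.3%) in MUTZ-5. At or above the median level, 85 of 286 of them (29.7%) passed in MHH-CALL4 and, in MUTZ-5, 81 (28.3%). Members with a small RNA had the highest median level (9.96), and 57 (28.9%) and 43 (21.8%) were called. At or above the median level these shares were 33.8% and 26.1%, near the 32.6% and 26.7% of all clusters at that level. Pairs of other genes were called in 311 (29.0%) and 233 (21.7%) cases. By position, 785 members hold genes that overlap in RefSeq, with a median level of 8.87, and 28.7% and 23.2% of them were called, against 22.4% and 16.7% of all clusters. Another 377 hold symbols on different chromosomes, with a median level of 8.32, of which 21.5% and 15.9% were called. At or above the median level the shares were 37.8% and 32.4% for overlapping genes and 32.2% and 26.7% for symbols on different chromosomes.

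**Figure D2:**
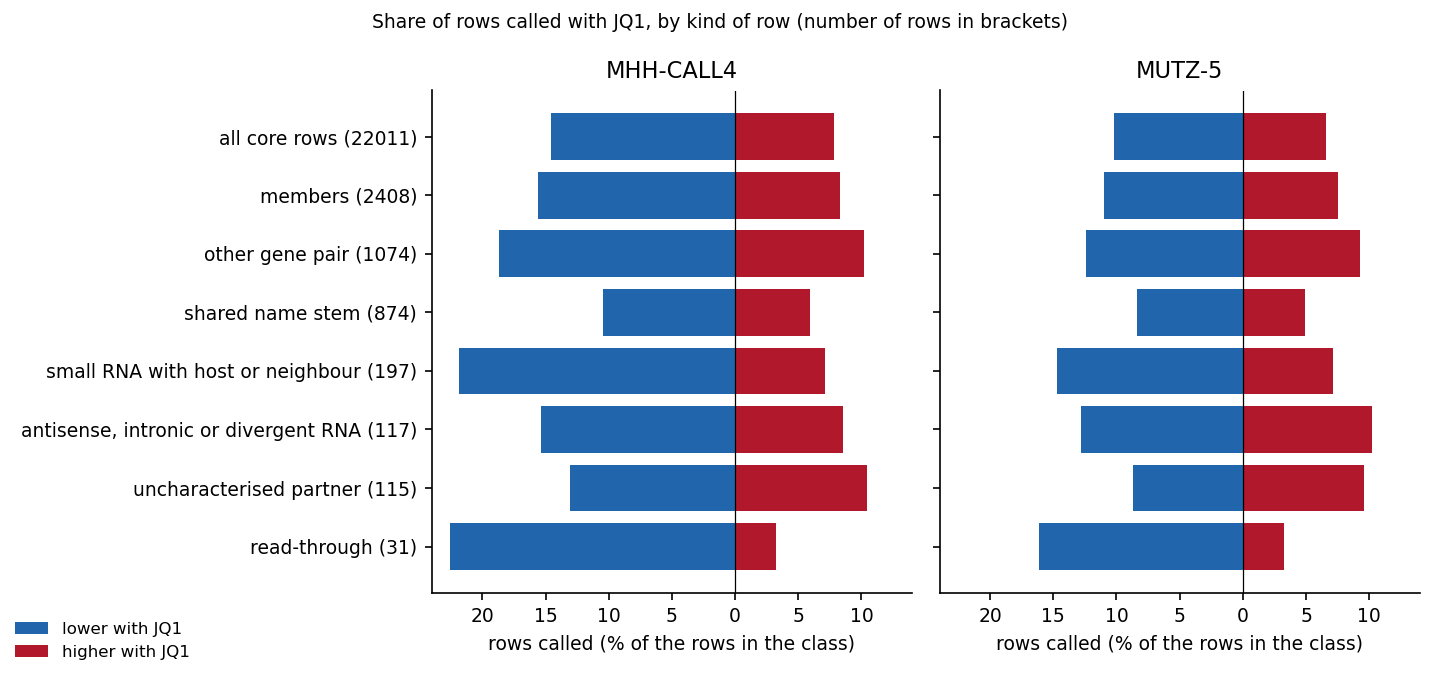
Share of clusters called lower (left of 0) and higher (right of 0) under JQ1 in each line, for all clusters, all members and each kind of member, with the number of clusters (rows) in brackets. Members with a shared name stem have the smallest share called in each line, both directions added, and members with a small RNA or a read-through symbol show long bars on the lower side.

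At the NME locus 1 of 2 read-through members fell in both lines. NME1 and NME2 are nucleoside diphosphate kinases, which transfer phosphate between nucleotides. The 31 read-through members had 1 higher and 7 lower in MHH-CALL4, and 1 higher and 5 lower in MUTZ-5. This made 25.8% and 19.4% called, against 22.4% and 16.7% of all clusters. At or above the median level it was 35% and 25%, against 32.6% and 26.7%. NME1/NME1-NME2 (cluster 3726934) read 11.78, 11.95 and 11.86 on the MHH-CALL4 DMSO arrays and 9.69, 9.65 and 9.64 under JQ1. In MUTZ-5 its DMSO arrays read 11.94, 11.89 and 12.06 and its JQ1 arrays 10.46, 10.40 and 10.41. The groups did not overlap in either line, and the MUTZ-5 JQ1 arrays all lay above the MHH-CALL4 JQ1 arrays. The decrease was 4.61-fold in MHH-CALL4 (log2 -2.20, SE 0.07, limma adjusted p = 2e-08) and 2.91-fold in MUTZ-5 (log2 -1.54, SE 0.07, adjusted p = 4.9e-07). The difference of these effects, 0.66, was called (adjusted p = 0.0088).

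The second cluster of the locus, NME2/NME1-NME2, showed no called change. It read 12.06, 12.17 and 12.02 under DMSO and 11.92, 11.84 and 11.86 under JQ1 in MHH-CALL4, where the groups did not overlap, and 12.02, 11.84 and 12.08 and 11.90, 11.80 and 12.08 in MUTZ-5, where they did. Its effects were -0.21 (adjusted p = 0.12) and -0.05 (adjusted p = 0.81). The read-through symbol is thus listed for a cluster that fell and for one that was not called. The 2 clusters are summarised from different probes, and the difference between them was not tested.

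Another read-through locus had 2 members. PPAN is a factor of large ribosomal subunit assembly, and P2RY11, the gene after it, is a nucleotide receptor. PPAN/PPAN-P2RY11/SNORD105 fell from 9.87 ± 0.014 to 9.15 ± 0.099 in MHH-CALL4 (mean ± SD, n = 3, adjusted p = 4.6e-05) and from 9.62 ± 0.029 to 8.96 ± 0.11 in MUTZ-5 (adjusted p = 0.00013). P2RY11/PPAN-P2RY11 fell as well, by 0.65 and 0.58 on the log2 scale (adjusted p = 0.00019 and 0.00058). Both clusters of this locus were lower in both lines. JMJD7-PLA2G4B/PLA2G4B/JMJD7, a hydroxylase gene joined to a phospholipase gene, was the read-through member that rose, by 0.67 and 0.60 (adjusted p = 0.00021 and 0.00058).

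MicroRNA hosts moved both ways. Of 113 members with a microRNA symbol, 12 rose and 20 fell in MHH-CALL4, and 12 rose and 11 fell in MUTZ-5, with median effects of 0.01 in each line. In all 28.3% and 20.4% were called, against 22.4% and 16.7% of all clusters. At or above the median level it was 35.8% and 26.9%, against 32.6% and 26.7%. MIR17HG, the primary transcript of the microRNAs whose seeds open the list above, read 8.85, 9.25 and 8.94 under DMSO and 7.56, 7.42 and 7.41 under JQ1 in MHH-CALL4. In MUTZ-5 it read 8.93, 9.01 and 9.34 and 8.13, 7.99 and 7.83. No JQ1 array reached the DMSO arrays of its line. The decrease was 2.92-fold (SE of the log2 effect 0.13, adjusted p = 1.3e-05) and 2.16-fold (adjusted p = 0.00018), and the difference between lines, 0.44, was not called (adjusted p = 0.5).

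MCM7, a subunit of the replicative helicase, hosts the microRNAs that share 2 of those seeds. MCM7/MIR106B/MIR25/MIR93 fell in MHH-CALL4 from 12.34 ± 0.059 to 11.92 ± 0.067 (1.33-fold, adjusted p = 0.0011). In MUTZ-5 it fell from 12.38 ± 0.076 to 12.17 ± 0.018 (1.16-fold, adjusted p = 0.047), a call lost under median centring and without most single arrays. Its effect was not tested against that of MIR17HG, which belongs to another cluster of probes.

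The miR-7 and miR-26 hosts moved both ways. AEN is a nuclease of apoptosis, and AEN/MIR7-2 read 9.06, 9.25 and 9.04 and then 7.83, 7.92 and 8.18 in MHH-CALL4, and 9.45, 9.37 and 9.55 and then 8.46, 8.52 and 8.36 in MUTZ-5, without overlap. It fell 2.21-fold and 2.01-fold (adjusted p = 1.6e-05 and 6.1e-05). HNRNPK/MIR7-1, with the RNA-binding protein HNRNPK, changed by -0.30 in MHH-CALL4 (adjusted p = 0.013, lost without DMSO replicate 3 or JQ1 replicate 2) and had an effect of -0.13 in MUTZ-5 (adjusted p = 0.32). The 3 phosphatase hosts of miR-26 split by direction. CTDSPL/MIR26A1 fell by 0.33 and 0.31 on the log2 scale (adjusted p = 0.0081 and 0.013), and CTDSP1/MIR26B fell by 0.36 and 0.33 (adjusted p = 0.0091 and 0.017). CTDSP2/MIR26A2 rose by 0.22 and 0.26 (adjusted p = 0.031 and 0.018). Its call was lost in MHH-CALL4 without DMSO replicate 1 or 3 or any JQ1 array, and in MUTZ-5 without DMSO replicate 1 or 2 or JQ1 replicate 1 or 3. The MUTZ-5 calls of the other miR-26 hosts were also lost without DMSO replicate 1 or JQ1 replicate 2, and that of CTDSP1/MIR26B without DMSO replicate 3.

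ARPP21/MIR128-2, whose host encodes a phosphoprotein regulated by cyclic AMP, differed between lines. Its MHH-CALL4 arrays read 8.43 to 8.61 under DMSO and 7.59, 7.57 and 7.34 under JQ1, and its MUTZ-5 arrays 5.97, 6.11 and 6.22 and 6.02, 6.01 and 6.06. The MUTZ-5 arrays of both treatments lay below all MHH-CALL4 arrays. It fell 2.02-fold in MHH-CALL4 (adjusted p = 1.8e-05), its MUTZ-5 effect was -0.07 (adjusted p = 0.72), and the difference of 0.94 was called (adjusted p = 0.0057). WIPI1/MIR635/ARSG, led by an autophagy gene, rose from 8.80 ± 0.046 to 9.49 ± 0.049 (adjusted p = 3.8e-05) and from 7.74 ± 0.068 to 8.65 ± 0.086 (adjusted p = 7.9e-06).

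Hosts of small nucleolar and Cajal body RNAs were called about as often as all clusters of their level, and most of those called fell. Of 87 such members, 2 rose and 23 fell in MHH-CALL4, and 2 rose and 18 fell in MUTZ-5, with median effects of -0.10 and -0.05. The called shares of 28.7% and 23.0% stood against 22.4% and 16.7% of all clusters, and at or above the median level 31.2% and 24.7% against 32.6% and 26.7%. Clusters with 1 symbol at that level were called more often, in 37.8% and 32.2%. Of the called members 92.0% and 90.0% were lower, against 65.1% and 60.9% of all called clusters, a difference that was not tested. These shares were taken on the deposited scaling only. DKC1/SNORA36A/SNORA56, whose host is the pseudouridine synthase that such guide RNAs direct, read 10.98, 11.23 and 11.08 and then 10.08, 10.03 and 10.06 in MHH-CALL4, and had means of 11.02 ± 0.064 and then 10.22 ± 0.066 in MUTZ-5 (± SD, n = 3). Its groups were apart in both lines, and it fell 2.06-fold and 1.74-fold (adjusted p = 4.4e-06 and 4.2e-05). NOP58/SNORD11, with a core protein of the box C/D guide particles, fell 1.70-fold and 1.47-fold (adjusted p = 0.00023 and 0.0023). NCL/SNORD20/SNORA75/SNORD82, with nucleolin, fell 1.30-fold and 1.31-fold (adjusted p = 0.012 and 0.011). These 3 hosts themselves serve the nucleolus.

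Other hosts that fell have other tasks. MRPL3/SNORA58, with a mitochondrial ribosomal protein, read 11.65, 11.53 and 11.38 and then 10.66, 10.53 and 10.06 in MHH-CALL4 and fell 2.15-fold (adjusted p = 0.00037), and in MUTZ-5 it fell 1.86-fold (adjusted p = 0.0019). CHD3/SCARNA21, with a chromatin remodeller, read 10.90, 10.98 and 10.92 and then 10.14, 10.12 and 10.12 in MHH-CALL4, and 11.19, 11.10 and 11.20 and then 10.46, 10.42 and 10.45 in MUTZ-5. It fell by 0.81 and 0.72 on the log2 scale with an SE of 0.06 (adjusted p = 4e-06 and 1.3e-05). Both groups of this member were tight and far apart. The translation helicase in EIF4A1/SNORA48/SNORA67/SNORD10 fell by 0.81 in MHH-CALL4 (adjusted p = 0.0049) and by 0.65 in MUTZ-5 (adjusted p = 0.019, lost without DMSO replicate 2 or 3 or JQ1 replicate 2 or 3). HSPA9/SNORD63, with a mitochondrial chaperone, fell by 0.56 and 0.49 (adjusted p = 0.00061 and 0.0019).

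Ribosome-linked hosts were not all lower. NOL11/SNORA38B, with a nucleolar factor of ribosomal RNA synthesis, fell by 0.62 in each line (adjusted p = 0.0071 and 0.0082). The member led by TAF1D, a subunit of an RNA polymerase I factor that hosts 8 guide RNAs here, fell by 0.45 (adjusted p = 0.025, lost without DMSO or JQ1 replicate 2 or 3) and 0.60 (adjusted p = 0.0067). No change was called in either line for the ribosomal protein hosts RPL30/SNORA72 (0.05 and 0.03, adjusted p = 0.63 and 0.89) and RPS20/SNORD54 (0.05 and 0.20, adjusted p = 0.62 and 0.065), nor for EEF2/SNORD37, with a translation elongation factor (0.10 and 0.10, adjusted p = 0.3 and 0.36). Their levels were among the highest of all members, at 13.34 or more in the DMSO means. RAB30/SNORA70E, with a Golgi GTPase, rose from 7.99 ± 0.23 to 8.88 ± 0.11 in MHH-CALL4 (adjusted p = 0.00025) and from 9.05 ± 0.15 to 9.54 ± 0.059 in MUTZ-5 (adjusted p = 0.013, lost without DMSO replicate 1).

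**Figure D3:**
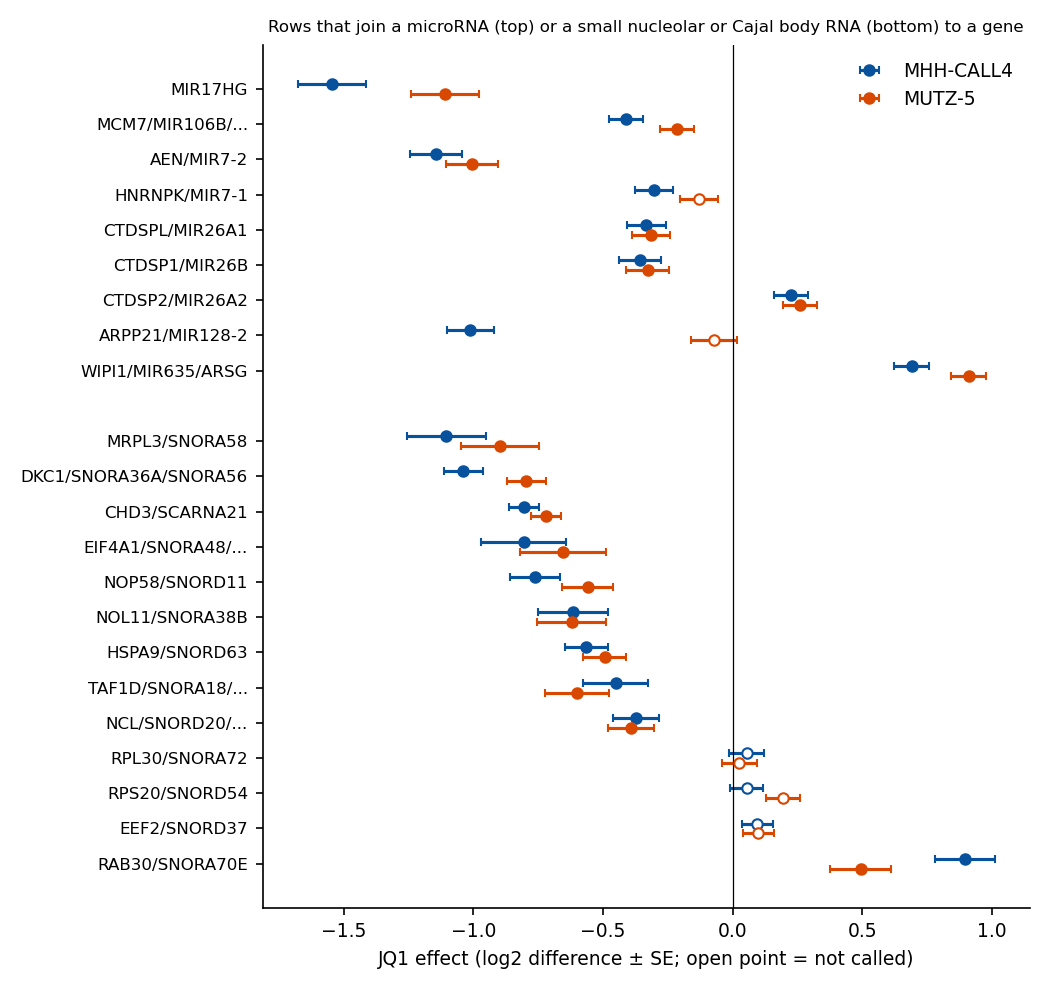
JQ1 effect (log2, with SE) of named members that join a microRNA (upper block) or a small nucleolar or Cajal body RNA (lower block) to a gene, in both lines, with open points where no change was called. MIR17HG and MRPL3/SNORA58 lie farthest to the left of their blocks, and WIPI1/MIR635/ARSG and RAB30/SNORA70E farthest to the right.

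Members with histone genes rose where they were called. The replication-type histones package new DNA, and 5 members carry several of their genes, some of the same histone type and some of different types. Of these, 3 (60%) rose in MHH-CALL4 and 2 (40%) in MUTZ-5 (limma), against 7.82% and 6.55% of all clusters. H2BC18/H3C13/H2BP1 read 10.17, 10.22 and 10.04 under DMSO and 12.26, 12.08 and 12.02 under JQ1 in MHH-CALL4, and 8.84, 8.78 and 9.26 and 10.88, 10.75 and 10.48 in MUTZ-5. All JQ1 arrays stood above the DMSO arrays of their line. The increase was 3.93-fold (SE of the log2 effect 0.14, adjusted p = 3.6e-06) and 3.35-fold (adjusted p = 1.2e-05).

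The other histone members varied in precision. H3C4/H2AC7 rose from 11.41 ± 0.061 to 12.08 ± 0.11 and from 10.86 ± 0.12 to 11.31 ± 0.031 (adjusted p = 0.00014 and 0.0026). H2BC12/H2BC12L rose by 0.80 in MHH-CALL4 (adjusted p = 0.047, lost without most single arrays), while its MUTZ-5 effect of 0.82 missed the threshold (adjusted p = 0.051). H2AC14/H2AC13 and H2BC6/H2BC9 had wide groups and no call. The first read 5.69, 8.52 and 7.90 on the MHH-CALL4 DMSO arrays, a span that overlapped its JQ1 arrays, and had effects of 1.48 and 0.95 (adjusted p = 0.14 and 0.43). The second had effects of 0.97 and 0.46 (adjusted p = 0.22 and 0.69).

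**Figure D4:**
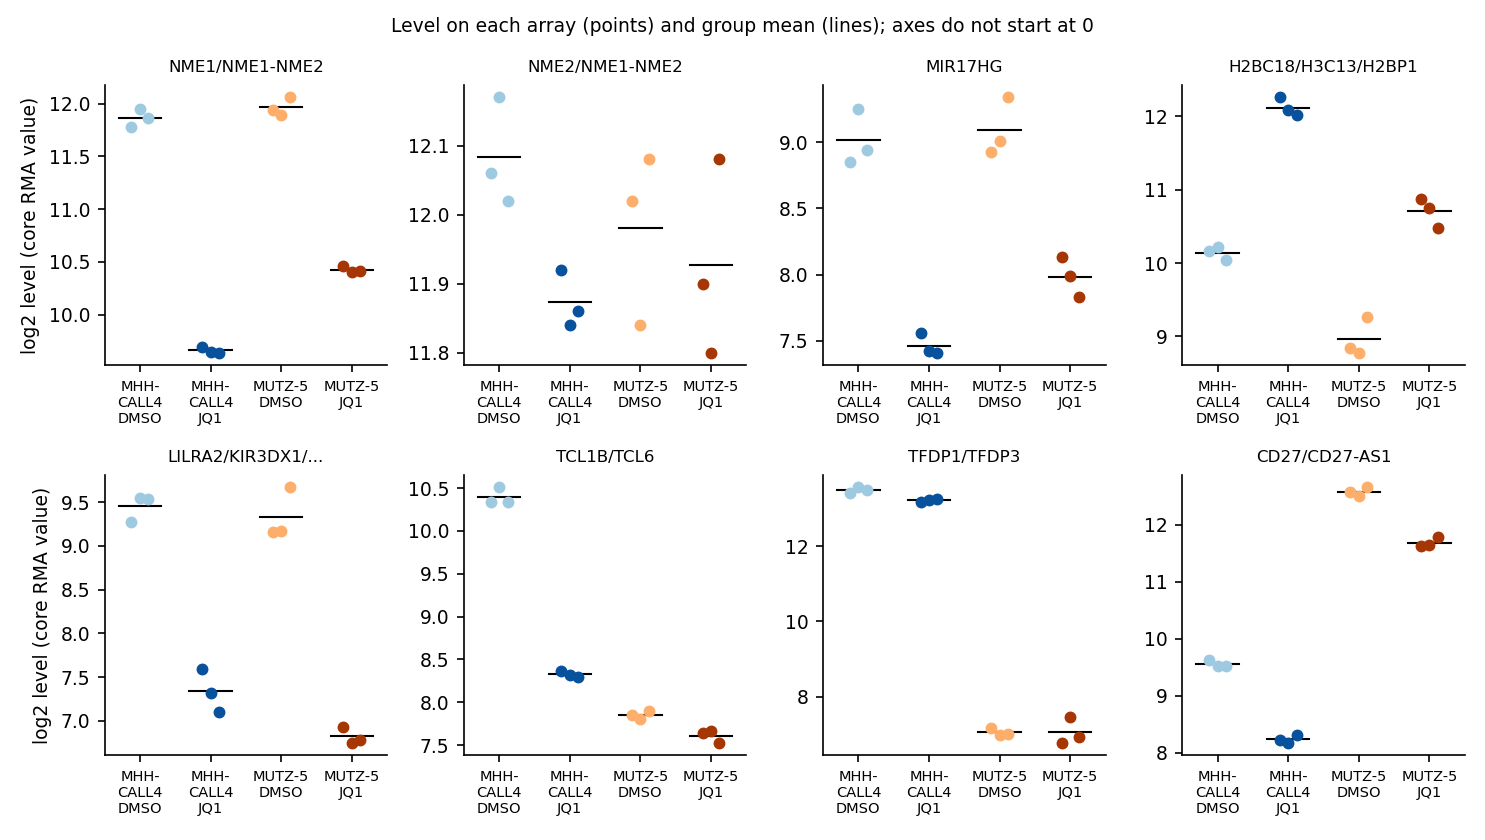
Core RMA level (log2) on each array for 8 members, with 1 point per array and a line at the mean of each group. NME1/NME1-NME2 falls in both lines while NME2/NME1-NME2 stays between 11.80 and 12.17, and TFDP1/TFDP3 and CD27/CD27-AS1 are separated by line.

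A few members with immune receptor genes were among the larger decreases in both lines, while others, such as the pair of clusters of SIGLEC7 and SIGLEC9, were called in neither. LILRA2/KIR3DX1/LAIR2/TTYH1 covers a stretch of immune receptor genes and a chloride channel gene. It read 9.27, 9.55 and 9.54 under DMSO and 7.59, 7.32 and 7.10 under JQ1 in MHH-CALL4, and 9.16, 9.17 and 9.67 and 6.93, 6.75 and 6.78 in MUTZ-5, and no groups of a line overlapped. The decrease was 4.34-fold in MHH-CALL4 (adjusted p = 4.9e-06) and 5.70-fold in MUTZ-5 (adjusted p = 2.3e-06). The cluster of the channel gene TTYH1 alone, with effects of 0.16 and 0.05, was not called (adjusted p = 0.35 and 0.85). The cluster of the receptor gene KIR3DX1 alone fell by 0.66 on the log2 scale in MHH-CALL4 (adjusted p = 0.0038) and had an effect of -0.17 in MUTZ-5 (adjusted p = 0.48).

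PVRIG/PILRB/STAG3 joins an inhibitory and an activating receptor to a meiotic cohesin subunit. Its MHH-CALL4 arrays read 10.51, 10.43 and 10.44 and then 8.13 to 8.55, and its MUTZ-5 arrays 10.41, 10.62 and 10.71 and then 8.45, 8.34 and 8.52. The lines had close levels at each treatment, and the decrease was 4.19-fold and 4.42-fold (adjusted p = 6.6e-07 and 1.1e-06). A cluster of STAG3 alone fell by 0.44 and 0.75 on the log2 scale (adjusted p = 0.0037 and 0.00016).

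PLVAP/BST2, with an endothelial membrane protein and the antiviral tether BST2, fell 3.05-fold and 3.32-fold (adjusted p = 2e-07 and 4e-07), and a cluster of BST2 alone had effects of -0.19 and -0.35 (adjusted p = 0.22 and 0.039). FCGR2A/FCGR2C, low-affinity receptors for antibody, read 8.82, 8.94 and 8.95 and then 7.75, 7.47 and 7.47 in MHH-CALL4, and 9.61, 9.42 and 9.93 and then 8.40, 8.30 and 7.92 in MUTZ-5. The decreases were 2.53-fold and 2.72-fold (adjusted p = 8.9e-05 and 7.9e-05). The effects differed by -0.10, which was not called (adjusted p = 0.95). ENTPD1/C10orf131, with the ectonucleotidase CD39, fell 2.58-fold and 2.56-fold (adjusted p = 1.4e-05 and 2.1e-05).

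IGLL1/IGLL3P and CD27/CD27-AS1, which hold lymphocyte genes, fell in both lines. IGLL1/IGLL3P holds a chain of the surrogate light chain of the precursor B cell receptor. It read 12.44, 12.63 and 12.58 and then 11.63, 11.43 and 11.61 in MHH-CALL4, and 11.25, 11.10 and 11.51 and then 9.92, 9.34 and 9.69 in MUTZ-5, without overlap. It fell 2.0-fold and 3.11-fold (adjusted p = 0.00054 and 2.6e-05). CD27/CD27-AS1, with a costimulatory receptor of the tumour necrosis factor receptor family and its antisense RNA, read 9.63, 9.52 and 9.53 and then 8.22, 8.18 and 8.31 in MHH-CALL4, and 12.58, 12.50 and 12.66 and then 11.63, 11.65 and 11.78 in MUTZ-5. It fell 2.50-fold and 1.86-fold (adjusted p = 6.2e-07 and 1.4e-05). All MUTZ-5 arrays of this member lay above all MHH-CALL4 arrays. Of 4 immunoglobulin members, 1 (25%) fell in MHH-CALL4 and 2 (50%) in MUTZ-5, against 14.6% and 10.2% of all clusters.

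Antigen presentation and interferon-induced families gave mixed counts. Of 6 HLA members, 2 fell in MHH-CALL4, and 1 rose and 1 fell in MUTZ-5. This was 33.3% called in each line, against 22.4% and 16.7% of all clusters. HLA-DMA/HLA-DMB, which loads peptides onto class II molecules, rose in MUTZ-5 from 12.72 ± 0.073 to 12.99 ± 0.0011 (adjusted p = 0.016, lost without DMSO replicate 2 or JQ1 replicate 1 or 2) and had an effect of 0.15 in MHH-CALL4 (adjusted p = 0.14). The cluster of HLA-DMB alone fell by 0.43 on the log2 scale in MHH-CALL4 (adjusted p = 0.004) and had an effect of 0.17 in MUTZ-5 (adjusted p = 0.23). The class I member HLA-B/HLA-C was called in neither line (0.09 and -0.18, adjusted p = 0.76 and 0.62). Of 16 members with interferons or interferon-induced genes, 1 rose and 5 fell in MHH-CALL4, and 1 rose and 3 fell in MUTZ-5. For these the shares were 37.5% and 25%, against the same 22.4% and 16.7%. GBP1/GBP3, guanylate-binding proteins of antimicrobial defence, fell 2.01-fold and 2.27-fold (adjusted p = 0.0038 and 0.0018). IFITM2/IFITM3, which block virus entry, fell by 0.76 (adjusted p = 0.0022) and 0.49 on the log2 scale (adjusted p = 0.03, lost without DMSO replicate 1 or 2 or JQ1 replicate 2 or 3). A second cluster with the same symbols, IFITM3/IFITM2, had effects of 0.17 and 0.00 (adjusted p = 0.76 and 1).

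Other near-copies gave large single changes. NOTCH2/NOTCH2NLA, a receptor of cell fate signalling and its copy, read 8.22, 7.92 and 8.04 and then 9.07, 9.06 and 8.85 in MHH-CALL4, and 9.78, 9.67 and 10.06 and then 10.74, 10.77 and 10.66 in MUTZ-5. The 4 groups did not overlap. It rose 1.91-fold and 1.85-fold (adjusted p = 0.00015 and 0.00029). OR2L8/OR2L3, olfactory receptor genes, had the largest fold increase among named members: it read 6.85, 6.65 and 6.58 and then 8.83, 9.28 and 8.38 in MHH-CALL4 (4.40-fold, adjusted p = 7.2e-05), and 6.61 to 7.14 and then 8.34, 8.80 and 8.11 in MUTZ-5 (2.82-fold, adjusted p = 0.0011). All JQ1 arrays lay above the DMSO arrays. A cluster of OR2L3 alone rose by 0.87 in MHH-CALL4 (adjusted p = 0.012) and had an effect of 0.29 in MUTZ-5 (adjusted p = 0.47). Among the 65 members of olfactory and taste receptors, 3 rose in MHH-CALL4, and 1 rose and 3 fell in MUTZ-5. That is 4.62% and 6.15% called, against 22.4% and 16.7% of all clusters, at a low median level of 6.14.

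Zinc finger genes, which encode DNA-binding proteins, made up 149 members, of which 12 rose and 24 fell in MHH-CALL4 and 12 rose and 14 fell in MUTZ-5. With 24.2% and 17.4% called, they were near the 22.4% and 16.7% of all clusters. ZNF487/ZNF485 fell from 9.32 ± 0.14 to 7.57 ± 0.16 (3.36-fold, adjusted p = 2.5e-06) and from 9.45 ± 0.11 to 8.20 ± 0.18 (2.38-fold, adjusted p = 3.6e-05). The cluster of ZNF487 alone, at a mean level of 6.56, had effects of 0.05 and 0.13 (limma, adjusted p = 0.83 and 0.58). ZNF32/ZNF32-AS3 fell 2.39-fold and 2.26-fold (adjusted p = 0.00011 and 0.00024). ZNF10/ZNF268 rose by 0.79 and 0.83 (adjusted p = 0.0022 and 0.0022). The tubulin members went both ways: TUBA1A/TUBA1B, alpha tubulins, rose by 0.56 and 0.71 (adjusted p = 0.00062 and 0.00017), while TUBA4A/STK16, an alpha tubulin with a kinase gene, fell by 0.49 and 0.58 (adjusted p = 0.00095 and 0.00045).

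Most called members of the translation factors fell, as most called clusters did, while calls among members with a ribosomal protein or chaperone symbol went both ways. In the order MHH-CALL4 then MUTZ-5, 22.4% and 16.7% of all clusters were called, and 65.1% and 60.9% of those were lower. Of 16 translation factor members 6 and 5 fell, and 1 rose in MHH-CALL4. They were called in 43.8% and 31.2% of cases. At or above the median level it was 46.7% and 33.3%, against 32.6% and 26.7% of all clusters at that level. Among 40 members with a symbol of a ribosomal protein or its pseudogene, 5 rose and 6 fell, and then 5 rose and 4 fell (27.5% and 22.5% called). In the 30 of them whose ribosomal symbol is a protein-coding gene in RefSeq, 2 rose and 6 fell, and then 4 rose and 4 fell. Of 23 members with a chaperone symbol, 2 rose and 6 fell, and then 4 rose and 5 fell (34.8% and 39.1% called). One of those that rose in both lines, EFR3B/DNAJC27-AS1, holds only an antisense RNA named after a chaperone gene, and the other 22 gave 1 rise and 6 decreases, and then 3 and 5. Of 23 members of cancer-testis families, 1 fell in MHH-CALL4 (MAGEC2/MAGEC3, -0.38, adjusted p = 0.013, lost without JQ1 replicate 2). The 34 members of segmental duplication families had 7 and 4 calls, the 15 protocadherin and UGT members 2 and 0, the 6 metallothionein members 1 and 0, the 7 chemokine members 0 and 1, the 17 tubulin and actin members 3 and 3, and the 19 protease and inhibitor members 1 and 1.

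Antisense partners and transcribed neighbours gave further large changes. EFR3B/DNAJC27-AS1, led by a plasma membrane scaffold gene, read 7.84, 7.54 and 7.71 and then 9.87, 9.87 and 9.62 in MHH-CALL4, and 7.29, 7.47 and 7.44 and then 8.68, 8.55 and 8.56 in MUTZ-5. No groups overlapped within a line. It rose 4.25-fold and 2.30-fold (adjusted p = 2.5e-07 and 1.6e-05). MYO5C/CERNA1, with an unconventional myosin, fell 2.34-fold and 2.66-fold (adjusted p = 1.3e-05 and 7.7e-06). GALNT10/SAP30L-AS1, with an enzyme that starts mucin-type glycosylation, rose by 0.98 and 1.05 (adjusted p = 8.3e-06 and 7.8e-06), and TIPARP/TIPARP-AS1, with a mono-ADP-ribosyltransferase, by 0.64 and 1.03 (adjusted p = 0.0039 and 0.00024). Over the 117 antisense, intronic or divergent members, 10 rose and 18 fell in MHH-CALL4 and 12 rose and 15 fell in MUTZ-5. These calls covered 23.9% and 23.1% of them, against 22.4% and 16.7% of all clusters.

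Gene pairs of metabolism and growth included BCAT1/DAD1P1, whose first gene is the cytosolic transaminase of branched-chain amino acids. It read 11.32, 11.52 and 11.35 and then 9.63, 9.69 and 9.57 in MHH-CALL4, and 11.62, 11.59 and 11.74 and then 10.63, 10.58 and 10.47 in MUTZ-5. It fell 3.40-fold and 2.13-fold (adjusted p = 2e-07 and 5.9e-06), with all MUTZ-5 JQ1 arrays above all MHH-CALL4 JQ1 arrays. CDK4/TSPAN31, with the kinase that drives entry into the cell cycle, fell from 12.53 ± 0.05 to 11.94 ± 0.048 and from 12.66 ± 0.04 to 12.13 ± 0.056 (adjusted p = 5.3e-05 and 0.00017). GLIPR1/KRR1, with a secreted-protein family gene and a ribosome assembly factor, fell 3.55-fold and 2.55-fold (adjusted p = 7.9e-06 and 9.7e-05), and a cluster of KRR1 alone fell by 0.65 and 0.47 on the log2 scale (adjusted p = 0.0003 and 0.0033). RCN1/TPT1-AS1, with a calcium-binding protein of the endoplasmic reticulum, fell in MHH-CALL4 from 8.32, 8.89 and 8.96 to 7.30, 6.06 and 5.91 (4.92-fold, adjusted p = 0.00087). Its MUTZ-5 decrease of 2.54-fold (adjusted p = 0.024) was lost without DMSO replicate 1 or 2 or JQ1 replicate 3. NMT2/PPIAP30, with an enzyme that attaches myristate to proteins, rose 2.32-fold and 2.19-fold (adjusted p = 8.6e-06 and 2e-05), and CCNYL1/CCNYL6, cyclin Y-like genes, rose 2.32-fold and 2.06-fold (adjusted p = 5e-05 and 0.0002).

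Members with promoter windows that overlap on opposite strands were lower where called, apart from 1 in MHH-CALL4. Windows shared on the same strand are not counted here, and H3C4/H2AC7, which has such windows, rose as given above. Of the 69 members whose symbols have windows that overlap on opposite strands, 1 rose and 21 fell in MHH-CALL4, and 14 fell in MUTZ-5. Thus 95.5% and 100% of the called members were lower, against 65.1% and 60.9% of all called clusters, a difference that was not tested. Here too the shares were taken on the deposited scaling only. The called shares were 31.9% and 20.3%, against 22.4% and 16.7% of all clusters, and at or above the median level 36.7% and 24.5%, against 32.6% and 26.7%. BRIX1/RAD1, which joins a ribosome assembly factor to a subunit of a DNA damage clamp, read 10.25, 10.11 and 10.13 and then 9.66, 9.24 and 9.19 in MHH-CALL4, and 10.11, 10.19 and 10.43 and then 9.68, 9.49 and 9.32 in MUTZ-5, without overlap. It fell by 0.80 and 0.75 on the log2 scale (adjusted p = 0.0016 and 0.003). RAD1, which shares 294 of 300 window bases with BRIX1, has a cluster of its own with effects of 0.01 and -0.07 (adjusted p = 0.98 and 0.88). FAM216A/GPN3, an uncharacterised gene with a GTPase of RNA polymerase II assembly, fell by 1.16 and 0.97 (adjusted p = 3.5e-06 and 1.6e-05), and the cluster of GPN3 alone changed by -0.29 in MHH-CALL4 (adjusted p = 0.024) and had an effect of -0.13 in MUTZ-5 (adjusted p = 0.34). MRPS12/SARS2, with a mitochondrial ribosomal protein and a mitochondrial tRNA synthetase, fell by 0.61 and 0.68 (adjusted p = 0.0034 and 0.0023).

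Of the members, 422 share all their symbols with another member, in 208 pairs and 2 sets of 3. In 190 of the pairs the clusters list a different symbol first, and 53 pairs hold genes that overlap on both strands. Taken singly, 20.9% of these 422 clusters passed the threshold for MHH-CALL4, against 22.4% of all clusters. For MUTZ-5 it was 18%, against 16.7%. In MHH-CALL4, 132 pairs had no called cluster, 64 had 1, 10 had both in the same direction and 2 had both in opposite directions. In MUTZ-5 the numbers were 146, 49, 10 and 3. The median absolute difference of the effects within a pair was 0.21 and 0.19. The pair counts were not compared with those that these shares alone would give, so pairs with 1 call do not show that paired clusters differ. No difference between paired clusters was tested.

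Opposite calls in both lines were seen at the locus of IL16, a cytokine, and STARD5, a carrier of sterols. IL16/STARD5 read 8.83, 8.97 and 8.94 and then 8.16, 8.25 and 8.34 in MHH-CALL4 and fell by 0.66 on the log2 scale (adjusted p = 4.6e-05). STARD5/IL16 read 8.15, 8.18 and 8.02 and then 8.95, 8.84 and 8.80 and rose by 0.75 (adjusted p = 7.3e-05). Each cluster's groups were apart. In MUTZ-5 the first fell by 0.63 and the second rose by 0.68 (adjusted p = 9.3e-05 and 0.00019). HEXD/OGFOD3, with a hexosaminidase and a hydroxylase gene, rose by 0.27 in MHH-CALL4 (adjusted p = 0.014, lost without DMSO replicate 1 or JQ1 replicate 3), and OGFOD3/HEXD fell there by 0.39 (adjusted p = 0.0031).

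In other pairs 1 cluster was called. MAK16/TTI2, led by a ribosome assembly factor, fell 2.04-fold and 1.88-fold (adjusted p = 0.00088 and 0.0025), and TTI2/MAK16, led by a kinase maturation factor, had effects of -0.06 and 0.19 (adjusted p = 0.68 and 0.2). SLC7A6/SLC7A6OS, led by an amino acid transporter, fell from 11.84 ± 0.058 to 10.95 ± 0.031 and from 11.56 ± 0.067 to 10.66 ± 0.078 (adjusted p = 5.6e-06 and 7.8e-06), while SLC7A6OS/SLC7A6 had effects of 0.00 and -0.02 (adjusted p = 0.98 and 0.94). ITGA4/CERKL, led by the integrin subunit alpha 4, fell by 0.79 and 0.73 (adjusted p = 0.00023 and 0.00053), against 0.20 and -0.14 for CERKL/ITGA4 (adjusted p = 0.079 and 0.25). TYW1B/TYW1, near-copies of a tRNA-modifying enzyme, rose by 0.85 and 0.79 (adjusted p = 0.00097 and 0.002), against -0.13 and -0.09 for TYW1/TYW1B (adjusted p = 0.49 and 0.72).

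The transcription factors STAT5A and STAT5B, which carry cytokine signals to the nucleus, share a pair of clusters. STAT5A/STAT5B read 9.47, 9.55 and 9.57 and then 8.46, 8.52 and 8.66 in MHH-CALL4 and fell 1.98-fold (adjusted p = 7.5e-06), and in MUTZ-5 it fell 1.43-fold (adjusted p = 0.00089). STAT5B/STAT5A fell 1.35-fold in MHH-CALL4 (adjusted p = 0.00096) and had an effect of -0.22 in MUTZ-5 (adjusted p = 0.05). Of the clusters of the inducible heat shock chaperones, HSPA1A/HSPA1B had effects of 0.05 and 0.20 (adjusted p = 0.86 and 0.49), and HSPA1B/HSPA1A rose by 0.31 in each line (adjusted p = 0.022 and 0.028). The latter calls were lost without DMSO replicate 1 or 3 or JQ1 replicate 1 or 2 in MHH-CALL4, and without replicate 1 or 2 of either treatment in MUTZ-5.

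**Figure D5:**
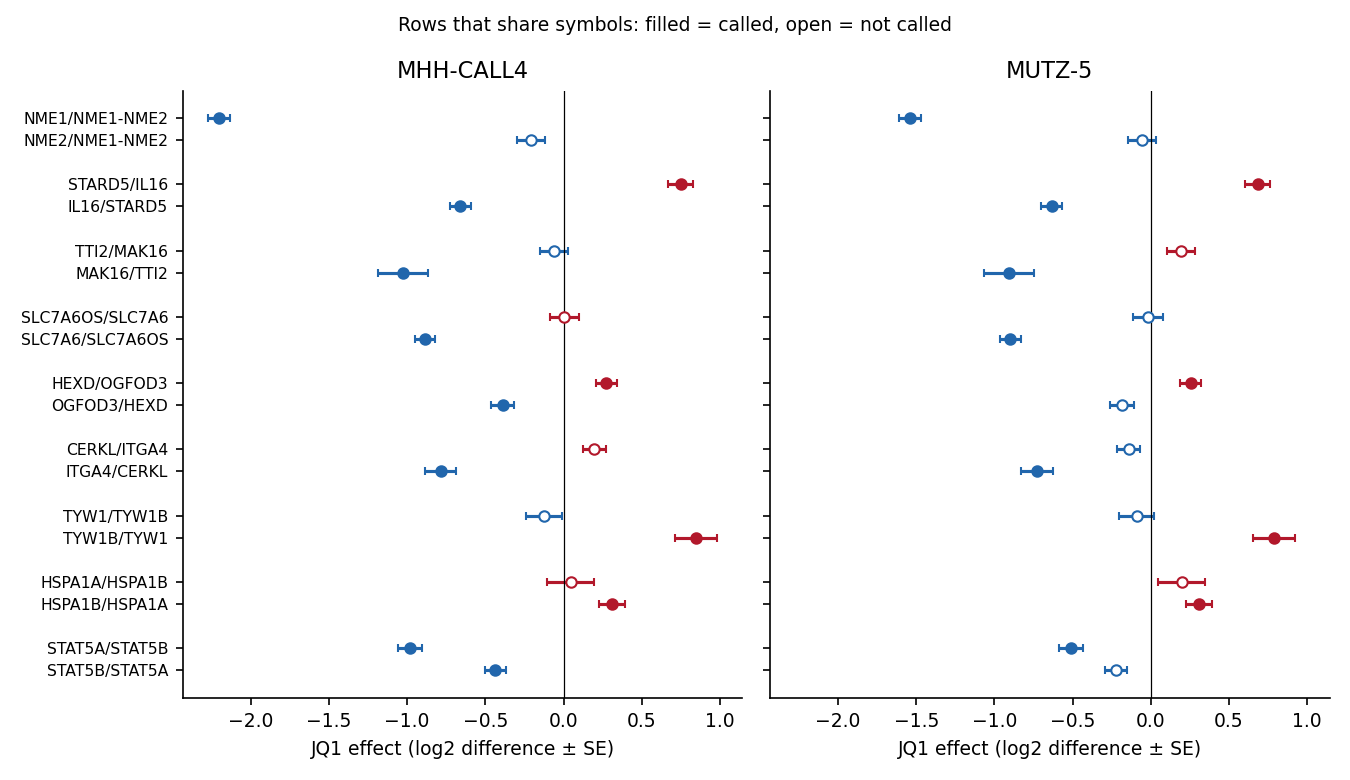
JQ1 effect (log2, with SE) of 9 pairs of clusters that share symbols, in MHH-CALL4 (left) and MUTZ-5 (right), with open points where no change was called. IL16/STARD5 and STARD5/IL16 lie on opposite sides of 0 in both lines, and NME1/NME1-NME2 lies far to the left of NME2/NME1-NME2.

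In 794 members a symbol also has a cluster of its own, 827 such symbols in all, of which 62 stand first in the member and 765 later. Where the member was called, the symbol's own cluster was called in the same direction for 47 of 215 in MHH-CALL4, in the opposite direction for 32, and not called for 136. In MUTZ-5 these were 30, 18 and 112 of 160. Among all clusters with 1 symbol, the MHH-CALL4 share with a call was 25.4% and the MUTZ-5 share 19.7%. Most own clusters of called members thus lacked a call, as did most clusters with 1 symbol, which include them. The share with a call was larger among the own clusters of called members. The counts were not matched for level, and their departure from these shares was not tested.

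Several such members went against the partner's own cluster. TESK1/CD72, led by a testis kinase gene, read 10.64, 10.68 and 10.65 and then 11.13, 11.20 and 11.28 in MHH-CALL4 and rose by 0.55 there and by 0.39 in MUTZ-5 (adjusted p = 0.00018 and 0.0022). The cluster of CD72 alone, an inhibitory coreceptor of B cells, fell by 1.68 and 1.51 on the log2 scale (adjusted p = 3.2e-07 and 1.2e-06). TAPBPL/VAMP1, led by a peptide-editing protein of class I presentation, fell 2.01-fold and 1.75-fold (adjusted p = 9.6e-06 and 6.7e-05), while VAMP1 alone, a vesicle fusion protein, rose by 0.87 and 0.81 (adjusted p = 1.2e-05 and 2.6e-05). PIGB/CCPG1, led by an enzyme of GPI anchor synthesis, fell by 1.02 and 0.69 (adjusted p = 2.1e-05 and 0.00044), while CCPG1 alone, a receptor for autophagy of the endoplasmic reticulum, rose by 0.51 and 0.61 (adjusted p = 0.0074 and 0.0032).

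The same held at the antiviral TRIM genes and at CDK4. TRIM5/TRIM22 rose by 0.35 (adjusted p = 0.014, lost without MHH-CALL4 DMSO replicate 1 or 3) and 0.40 (adjusted p = 0.0083), while TRIM22 alone fell by 1.00 and 1.13 (adjusted p = 1.3e-05 and 7.8e-06). CDK4/TSPAN31 fell, as given above, while the tetraspanin gene TSPAN31 alone rose by 0.32 and 0.47 (adjusted p = 0.018 and 0.0023). WIPI1/MIR635/ARSG rose while ARSG alone, a sulfatase, fell by 0.44 and 0.36 (adjusted p = 0.0035 and 0.013). A partner that moved with its member was FAS, a death receptor: STAMBPL1/FAS, led by a deubiquitinase, fell by 0.84 and 0.64 (adjusted p = 0.001 and 0.0069), and FAS alone fell by 1.43 and 1.34 (adjusted p = 7.7e-06 and 1.7e-05).

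The JQ1 effect differed between lines in few members. The difference (MUTZ-5 effect minus MHH-CALL4 effect) was called for 21 of 2408 members (0.872%), against 0.895% of all clusters. It was positive in 13 (0.540%), against 0.586% of all clusters, and negative in 8 (0.332%), against 0.309%. This count was 10 to 13 when any 1 of 5 arrays was left out: MHH-CALL4 DMSO replicate 1 (13) or 2 (12), MHH-CALL4 JQ1 replicate 2 (13), or MUTZ-5 JQ1 replicate 1 (13) or 2 (10). With the extended summaries 1 member was called. TCL1B/TCL6, genes of a locus rearranged in T cell leukemia, read 10.34, 10.51 and 10.34 and then 8.36, 8.32 and 8.30 in MHH-CALL4, and 7.85, 7.80 and 7.90 and then 7.64, 7.66 and 7.53 in MUTZ-5. Even under JQ1 the MHH-CALL4 arrays lay above all MUTZ-5 arrays. It fell 4.20-fold in MHH-CALL4 (adjusted p = 3.3e-08) and 1.18-fold in MUTZ-5 (adjusted p = 0.037, lost under median centring and without any 1 of 7 arrays, among them every MUTZ-5 JQ1 array), and the difference was 1.83 (adjusted p = 2.5e-05).

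OTOA/OTOAP1, a gene of the inner ear matrix and its pseudogene, read 9.67, 9.88 and 9.61 and then 7.74, 8.07 and 8.09 in MHH-CALL4, and 7.45, 7.42 and 7.21 and then 7.05, 7.23 and 7.17 in MUTZ-5, where the groups overlapped. The MHH-CALL4 decrease was 3.36-fold (adjusted p = 2.2e-06), the MUTZ-5 effect -0.21 (adjusted p = 0.28) and the difference 1.54 (adjusted p = 0.0011). CLEC2D/NPM1, annotated with a ligand of an NK cell receptor and with nucleophosmin, which lie on different chromosomes, read 10.49, 10.61 and 10.52 and then 8.88, 8.91 and 8.47 in MHH-CALL4, and had means of 12.39 ± 0.14 and then 11.94 ± 0.081 in MUTZ-5 (± SD, n = 3). All MUTZ-5 arrays lay above all MHH-CALL4 arrays. It fell 3.45-fold in MHH-CALL4 (adjusted p = 2.1e-06) and 1.37-fold in MUTZ-5 (adjusted p = 0.02, lost without DMSO replicate 2 or 3 or JQ1 replicate 3), with a difference of 1.33 (adjusted p = 0.0027).

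In the other direction, PTPN14/AP3S1/AP3S1P2, led by a protein tyrosine phosphatase, read 6.61, 6.55 and 6.73 and then 6.93, 6.71 and 6.78 in MHH-CALL4, where the groups overlapped, and 7.97, 7.87 and 8.25 and then 6.85, 6.89 and 6.99 in MUTZ-5. It fell 2.18-fold in MUTZ-5 (adjusted p = 3.4e-05), with an MHH-CALL4 effect of 0.18 (adjusted p = 0.26) and a difference of -1.30 (adjusted p = 0.0017). TMEM144/GASK1B-AS1, led by a transmembrane protein, fell 1.91-fold in MUTZ-5 (adjusted p = 0.00047) with an MHH-CALL4 effect of 0.32 (adjusted p = 0.092) and a difference of -1.25 (adjusted p = 0.0075), at levels below 7 on every array. TNFSF4/LOC646870, led by the OX40 ligand, a costimulator of T cells, fell 5.18-fold in MHH-CALL4 from 9.70, 9.37 and 9.42 to 7.21, 7.08 and 7.07 and 2.25-fold in MUTZ-5 (adjusted p = 3.4e-06 and 0.00056). Its difference of 1.20 (adjusted p = 0.038) was lost under cyclic loess and without most single arrays, and with the extended summaries it was -0.059.

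Under DMSO alone the lines differed in 525 members (21.8%), against 19.0% of all clusters. MUTZ-5 was higher in 262 (10.9%), against 9.04% of all clusters, and lower in 263 (10.9%), against 9.97%. TFDP1/TFDP3, the dimerisation partner of the E2F cell cycle factors with a related gene, had the largest difference. Its MHH-CALL4 arrays read 13.40, 13.56 and 13.49 and its MUTZ-5 arrays 7.16, 6.98 and 7.02, 86-fold lower in MUTZ-5 (adjusted p = 1.8e-10). A similar gap stood under JQ1, with 13.18, 13.22 and 13.26 against 6.78, 7.47 and 6.94, and no JQ1 change was called in either line (-0.26 and 0.01, adjusted p = 0.23 and 0.98).

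Other members were also far apart between lines. MTAP/CDKN2B-AS1, with an enzyme of methionine salvage and a long noncoding RNA of the neighbouring cell cycle inhibitor locus, read 9.95, 10.19 and 9.95 on the MHH-CALL4 arrays, while the MUTZ-5 arrays read 6.13, 6.28 and 5.94, 15.1-fold lower in MUTZ-5 (adjusted p = 8.5e-10). ZNF595/ZNF876P was 11.4-fold lower in MUTZ-5 (adjusted p = 2.4e-08). LCN6/LOC100128593, led by a lipocalin gene, was 7.72-fold lower (adjusted p = 1.4e-09) and ANXA2P2/ANXA2, with a calcium-dependent membrane-binding protein, 6.89-fold lower (adjusted p = 1.5e-06). Higher in MUTZ-5 was CCDC144BP/CCDC144A/CCDC144CP/USP32P2, a set of duplicated genes and pseudogenes, at 10.23 ± 0.27 against 5.87 ± 0.49 (mean ± SD, n = 3), a 20.6-fold difference (adjusted p = 3.7e-07). CD27/CD27-AS1 was 8.10-fold higher in MUTZ-5 (adjusted p = 2.8e-10). RAB6C/RAB6A/RAB6D, Golgi GTPases, were 7.68-fold higher (adjusted p = 1.1e-06), PLPP1/RNF138P1/RNF138, led by a lipid phosphatase, 6.98-fold higher (adjusted p = 8.5e-09), and SP140/SP140L, nuclear body proteins of lymphocytes, 6.95-fold higher (adjusted p = 3e-07).

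The members with the highest signals were not called. HNRNPM/ND1/DYNC1I2, which lists a splicing protein, a mitochondrial genome gene and a dynein chain, had DMSO means of 14.21 and 14.34 and effects of -0.01 and -0.10 (adjusted p = 0.92 and 0.38). RPS29/LRR1/RN7SL2, with a ribosomal protein and the RNA of the signal recognition particle, had means of 14.22 and 14.24 and effects of -0.01 and -0.05 (adjusted p = 0.95 and 0.7). ND4/ND4L, subunits of respiratory complex I, and YWHAQ/YWHAQP8, an adaptor protein of phosphorylated targets, had effects of -0.03 and -0.05 (adjusted p = 0.77 and 0.76) and of 0.05 and 0.03 (adjusted p = 0.56 and 0.83). Whether these clusters were saturated is not known.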

How the data were processed

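RNA of 12 samples, 3 in each of 4 groups, was measured on exon arrays. The deposited values are log2 levels from robust multi-array averaging (RMA) in Affymetrix Expression Console, per the submitters' processing notes, in a core and an extended form. Its version, the array's genome build and any detection filter are not given in the sources used here. The 24 deposited columns were mapped by name to samples. Clusters were named through the platform annotation, and 5542 of 5593 member symbols matched a RefSeq gene (GRCh38.p14), which gave sequences and neighbourhood.

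All 22011 core rows were fitted in 1 model with a mean per group (limma 3.58.1, lmFit and eBayes, R 4.3.3), with two-sided tests and Benjamini-Hochberg adjustment within each comparison over all rows. Calls are at an adjusted p under 0.05. The test was checked on simulated data. Their noise was independent between clusters and arrays, so the check does not cover shifts of whole arrays or replicates of 1 culture. Tables were made with Python 3.11.15, pandas 2.3.3 and numpy 2.4.6. The number of arrays limits the precision.

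Named members were the 8 largest increases and decreases per line among called members whose groups do not overlap and whose higher mean reaches the median level of 8.51, up to 3 called members per class and per family list, the 5 largest differences each way between effects and between lines, the 5 highest levels, the 3 pairs sharing symbols with the highest levels, and the 4 members with the largest effects whose symbol has its own cluster. This gave 90 of the 153 members listed with values. The others, among them RSPH10B/RSPH10B2, NME2/NME1-NME2, BRIX1/RAD1 and most hosts and pairs described beside them, were chosen after their values were seen. The members and lists were chosen with earlier results of these data known. The 24 members with a Y chromosome symbol are counted and not named. Family counts over protein-coding symbols alone were added after seeing the data. Besides leaving out each array, 7 alternatives were tried.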

Additional observations from a re-analysis of the deposited data

Results flagged for a closer look

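The JQ1 effect differed between the lines, by limma's test of the difference itself, in 20 members whose values are listed. Each value is the MUTZ-5 effect minus the MHH-CALL4 effect on the log2 scale. Among members that lead with a gene of blood or immune cells, the difference was 1.83 for TCL1B/TCL6, 1.33 for CLEC2D/NPM1, 1.20 for TNFSF4/LOC646870, 0.96 for BAALC/LINC01181, 0.94 for ARPP21/MIR128-2 and -0.64 for the immunoglobulin kappa member. In members led by other genes it was 0.68 for BCAT1/DAD1P1, 0.66 for NME1/NME1-NME2, 0.70 for SLC2A9/LSP1P5/LSP1P4, 0.57 for GBGT1/RALGDS, -0.72 for PDIA6/ATP6V1C2 and -0.86 for CYP4Z1/CYP4Z2P. It was also found in OTOA/OTOAP1 at 1.54, RFPL3/RFPL2/RFPL1 at 0.75, ATXN7L1/EFCAB10 at 0.74, ZP3/POMZP3 at 0.63, PTPN14/AP3S1/AP3S1P2 at -1.30, TMEM144/GASK1B-AS1 at -1.25, EFR3B/DNAJC27-AS1 at -0.89 and ADORA2A/SPECC1L at -0.59. In PDIA6/ATP6V1C2 the MHH-CALL4 effect was 0.73 (adjusted p = 0.0001) and the MUTZ-5 effect 0.00 (adjusted p = 0.99), while the cluster of PDIA6 alone fell by 0.67 and 0.46 on the log2 scale (adjusted p = 0.00054 and 0.0072). Of these 20 calls, 73 of 240 tests that left out 1 array missed the threshold, and with the extended summaries 1 call was kept, that of TCL1B/TCL6. The losses were uneven. Without most single arrays the call was lost for ADORA2A/SPECC1L, CYP4Z1/CYP4Z2P, GBGT1/RALGDS, TNFSF4/LOC646870, ATXN7L1/EFCAB10 and the immunoglobulin kappa member. Leaving out any single array kept it for OTOA/OTOAP1 and PTPN14/AP3S1/AP3S1P2, among others.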

How the results depend on the processing

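The number of called members was within 1.5 times its value for both JQ1 effects and the difference between lines under DMSO under every alternative run except the extended summaries, which gave 169 in MHH-CALL4, 94 in MUTZ-5, 1 for the difference of the effects and 215 between lines. Of the members called between lines under DMSO, 519 of 525 kept their sign there and 208 were called with the same sign. The count of differences between effects also moved when only clusters at or above the median level (12) or with a symbol (32) were fitted, and to 5 with the replicate block. With the replicate number as a block the counts were 407, 310, 5 and 390 in the same order. Whether the replicate numbers pair the samples is not known. Same-numbered DMSO and JQ1 arrays deviated from their group means with correlations of 0.10, 0.04 and 0.13 (MHH-CALL4) or -0.22, -0.17 and -0.40 (MUTZ-5). Between arrays of different numbers they ran from -0.12 to 0.05 (MHH-CALL4) and from -0.18 to 0.30 (MUTZ-5). Deviations from a mean of 3 arrays depend on each other, so these values cannot decide it. Leaving out each array in turn gave 418 to 640, 299 to 454, 10 to 24 and 380 to 533. Signs turned with the extended summaries for TNFSF4/LOC646870, whose difference of effects was -0.059 (limma, adjusted p = 0.98) and whose difference between lines under DMSO was 0.13 (adjusted p = 0.6), and for EIF1AX/SCARNA9L, at -0.10 between lines (adjusted p = 0.77). The cause was not tested. Of 113 named calls in MHH-CALL4, 46 missed the threshold with the extended summaries, 3 under cyclic loess, 2 under median centring and 13 with the block. Of 101 in MUTZ-5 these were 56, 1, 2 and 15. No detection calls were used, so changes at low signal cannot be told from background.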
